A study of Homo sapiens with 12 samples.

Results

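The 41 genes described here act in the G2 phase of the cell cycle, at the entry into mitosis and in mitosis itself. They were taken by name from a list, and each has a row in the RNA-seq and in the Ribo-seq count table, out of 27011 genes in all. The tables come from HEK293T cells, a proliferating human embryonic kidney line that carries the large T antigen of a simian virus. By their labels the cells were GIGYF1/2-null (lacking both GIGYF1 and GIGYF2), 4EHP-null (lacking 4EHP, the product of EIF4E2) or wild type (WT), and none was treated. RNA-seq measured mRNA abundance and Ribo-seq measured ribosome-protected fragments (footprints), with 2 libraries per genotype and assay, 12 in all. Cells were plated in 15 cm dishes 24 h before harvest. The design text calls the libraries biological replicates, but no label says whether they came from separate cultures or from 1 clone or several, so p-values measure only the spread between these samples. The series asks what 4EHP and its GIGYF partners do to the mRNAs they bind, and the comparisons below set out the mitotic genes in cells labelled as lacking them.

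4EHP is a cap-binding relative of eIF4E that does not start translation, and GIGYF1 and GIGYF2 are scaffold proteins that hold 4EHP together with translational repressors and mRNA decay factors. The mitotic genes are known as targets of a shared transcriptional program. The MuvB complex silences them in resting cells together with E2F and pocket proteins, and activates them in G2 together with B-MYB and FOXM1. MuvB reads a short promoter element, the cell cycle genes homology region (CHR), and NF-Y binds CCAAT boxes nearby. Because this program activates the genes in G2, their mRNA in a culture is known to vary with the share of cells in G2 and mitosis. In these bulk libraries, fewer cells in G2 or mitosis and less mRNA per such cell cannot be told apart.

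Of the 41 genes, 35 have a promoter window in the RefSeq table (build GRCh38.p14), which runs from 250 bases before to 50 bases after the start site. The CHR letters, TTTGAA or TTCGAA on either strand, occurred in 25 of those 35 windows (71.4%), against 13.5% of 15843 windows of protein-coding genes and 2 of 35 windows (5.71%) of G1/S and DNA replication genes. CCAAT, on either strand, occurred in 27 of 35 (77.1%), against 36.4% of protein-coding windows and 57.1% of the G1/S windows, and both motifs in 60.0% against 5.57% of protein-coding and 5.71% of G1/S windows. Of 97 windows of other G2/M and mitosis genes, 47.4% held the CHR letters, 56.7% CCAAT and 28.9% both. Each motif was searched on its own, so that letters where motifs overlap counted for both, and a match is a description of the sequence, not a binding site. The 200 bases before the start site are shown for 6 genes, with CHR and CCAAT letters of either strand in capitals. The first 5 are genes whose mRNA or footprints changed below, and PLK1, which holds both motifs, is shown because none of its values was called. TOP2A lies at chr17:40417897-40418096 on the minus strand, INCENP at chr11:62123811-62124010 on the plus strand and ANLN at chr7:36389662-36389861 on the plus strand. CDK1 lies at chr10:60778131-60778330 on the plus strand, CENPA at chr2:26785856-26786055 on the plus strand and PLK1 at chr16:23678689-23678888 on the plus strand.
TOP2A: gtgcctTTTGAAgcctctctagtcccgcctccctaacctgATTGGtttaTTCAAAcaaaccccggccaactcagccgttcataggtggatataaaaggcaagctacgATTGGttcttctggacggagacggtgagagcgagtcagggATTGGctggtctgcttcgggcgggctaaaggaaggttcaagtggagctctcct
INCENP: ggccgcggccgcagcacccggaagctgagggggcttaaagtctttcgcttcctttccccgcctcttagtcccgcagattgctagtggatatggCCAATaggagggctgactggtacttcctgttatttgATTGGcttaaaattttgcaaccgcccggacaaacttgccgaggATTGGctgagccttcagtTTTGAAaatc
ANLN: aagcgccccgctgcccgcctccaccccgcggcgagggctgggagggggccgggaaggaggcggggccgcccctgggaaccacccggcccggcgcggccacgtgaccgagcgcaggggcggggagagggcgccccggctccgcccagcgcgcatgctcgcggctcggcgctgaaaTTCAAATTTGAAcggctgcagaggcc
CDK1: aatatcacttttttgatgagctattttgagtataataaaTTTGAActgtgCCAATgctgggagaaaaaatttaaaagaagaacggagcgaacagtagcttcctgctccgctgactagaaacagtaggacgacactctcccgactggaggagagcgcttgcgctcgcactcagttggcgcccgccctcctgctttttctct
CENPA: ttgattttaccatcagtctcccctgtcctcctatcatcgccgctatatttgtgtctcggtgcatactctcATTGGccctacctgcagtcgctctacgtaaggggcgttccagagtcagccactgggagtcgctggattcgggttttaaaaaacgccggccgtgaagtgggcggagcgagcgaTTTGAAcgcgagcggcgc
PLK1: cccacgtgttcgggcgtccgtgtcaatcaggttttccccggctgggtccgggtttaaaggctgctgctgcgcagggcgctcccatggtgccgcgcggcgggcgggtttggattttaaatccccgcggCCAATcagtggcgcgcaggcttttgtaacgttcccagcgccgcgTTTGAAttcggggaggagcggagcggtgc
The CHR letters stand close to the start site in INCENP, ANLN, CENPA and PLK1, and further upstream in TOP2A and CDK1. ANLN carries them side by side on opposite strands and has no CCAAT in this stretch.

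Total counts ran from 26143118 to 38175701 in the mRNA libraries and from 6536493 to 10816080 in the footprint libraries. EIF4E2 mRNA was at 51.0 and 46.7 CPM (counts scaled to library size, with TMM factors) in 4EHP-null libraries, against 123.0 and 123.1 CPM in WT libraries (log2 change -1.33 ± 0.08, edgeR adjusted p = 5.92e-07). GIGYF1 mRNA was at 22.4 and 26.0 CPM in GIGYF1/2-null libraries, against 41.2 and 40.8 CPM in WT libraries (-0.76 ± 0.11, edgeR adjusted p = 0.000691). GIGYF1 footprints were at 1.70 and 2.74 CPM in GIGYF1/2-null libraries, against 8.68 and 6.71 CPM in WT libraries. GIGYF2 counts were not called lower in GIGYF1/2-null cells: its mRNA stood at 96.6 and 81.8 CPM in GIGYF1/2-null libraries and 81.2 and 66.0 CPM in WT libraries (log2 change 0.28 ± 0.11, edgeR adjusted p = 0.124). GIGYF2 footprints were at 81.5 and 51.6 CPM in GIGYF1/2-null libraries and 90.7 and 63.8 CPM in WT libraries (-0.21 ± 0.22, edgeR adjusted p = 0.671). Gene counts do not show whether a reading frame is intact. The 10 markers of HEK293T cells were all above 1 CPM in every library. Of 8 markers of blood cells, liver and islets, 5 had at most 10 counts in every library, PTPRC and INS were at 0, and their summed level was 2.79 to 3.60 CPM in GIGYF1/2-null, 2.41 to 2.63 CPM in 4EHP-null and 2.51 to 2.85 CPM in WT libraries. All 41 genes passed the filter on low counts in both assays, with 331 (KIF18A) to 12080 (BIRC5) mRNA counts and 34 (CENPA) to 3908 (CENPF) footprint counts per library.

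Changes below are log2 fold changes ± standard error over 2 libraries per genotype. Adjusted p-values come from edgeR's quasi-likelihood test with Benjamini-Hochberg adjustment over all genes tested, and a gene is called at an adjusted p under 0.05. In GIGYF1/2-null cells, 5 of the 41 mRNAs fell against WT and none rose. They were INCENP (-0.64 ± 0.12), the scaffold of the chromosomal passenger complex, ANLN (-0.66 ± 0.15), which scaffolds the cleavage furrow, and TTK (-0.55 ± 0.15), the kinase that starts the spindle checkpoint. KIF2C (-0.51 ± 0.11), a kinesin that takes microtubules apart at centromeres, and ESPL1 (-0.31 ± 0.08), separase, completed the set. Over all 15637 genes tested, 11.9% were called, 5.2% higher and 6.75% lower. The share of the 41 genes called in either direction, 12.2%, was near that of all genes. All of these calls were lower, so the share called lower was also 12.2%, against 6.75% of all genes. The median change of the 41 genes was -0.11, against 0.0052 over all genes, and 29 of 41 lay within 1.2-fold of WT. No member was called with WT replicate 1 left out, and 9 were with GIGYF1/2-null replicate 1 left out.

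In footprints, 2 of the 41 genes fell in GIGYF1/2-null cells against WT, TTK (-0.78 ± 0.15) and ANLN (-0.78 ± 0.17), and none rose. The background was 2.09% of 14722 genes called, 0.727% higher and 1.36% lower. The median footprint change was -0.21, against 0.0022 over all genes, and 33 of the 41 values were below 0, against 7309 of 14722. Leaving out GIGYF1/2-null replicate 2 gave a count of 0, as did leaving out WT replicate 1. Leaving out WT replicate 2 gave 1, and leaving out GIGYF1/2-null replicate 1 gave 9.

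In 4EHP-null cells, 3 mRNAs rose and 2 fell against WT. The mRNAs that rose were TOP2A (0.66 ± 0.13), topoisomerase II alpha, which untangles sister chromatids, CENPF (0.55 ± 0.13), a large protein of the outer kinetochore, and KIF14 (0.47 ± 0.12), a kinesin of cytokinesis. Those that fell were CDK1 (-0.37 ± 0.09), the kinase that drives entry into mitosis, and CENPA (-0.50 ± 0.13), the histone H3 variant that marks centromeres. Over all genes 13.1% were called, 6.47% higher and 6.63% lower, and among the 41 genes 12.2% were. The median change was 0.02, against -0.0030 over all genes, and 34 of 41 genes lay within 1.2-fold of WT. The count was 2 with 4EHP-null replicate 2 left out, 1 with WT replicate 1 left out and 0 with WT replicate 2 left out. No footprint change was called in 4EHP-null cells by edgeR, where 3.04% of all genes were called, 1.58% higher and 1.46% lower. At an unadjusted p under 0.05 there were 4 of the 41, against 2805 of all 14722 genes. DESeq2 called 1 of the 41, TOP2A, against 327 of all genes.

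The comparison of GIGYF1/2-null with 4EHP-null cells uses the same libraries as the comparisons above and held the most calls. In mRNA, 10 genes were lower and 2 higher in GIGYF1/2-null cells, where 13.0% of all genes were called lower, 11.4% higher and 24.4% in either direction. The 10 were INCENP, ANLN, TPX2, TOP2A, HMMR, TTK, KIF2C, NDC80, BUB1B and KIF4A, and the 2 were CENPA and PTTG1. In footprints, 9 genes were lower and 1, CENPA, was higher, against 6.8% of all genes called lower, 3.98% higher and 10.8% in either direction. The 9 were INCENP, ANLN, TTK, TOP2A, TPX2, ASPM, NDC80, KIF2C and BUB1B. The members' shares were 29.3% in mRNA and 24.4% in footprints. Under upper-quartile scaling 8 mRNAs were lower and 4 higher, and 8 footprint values lower and 2 higher. Without 4EHP-null replicate 2, 5 mRNAs were called. In footprints, the count was 3 without 4EHP-null replicate 1 and 5 without GIGYF1/2-null replicate 2.

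**Figure D1:**
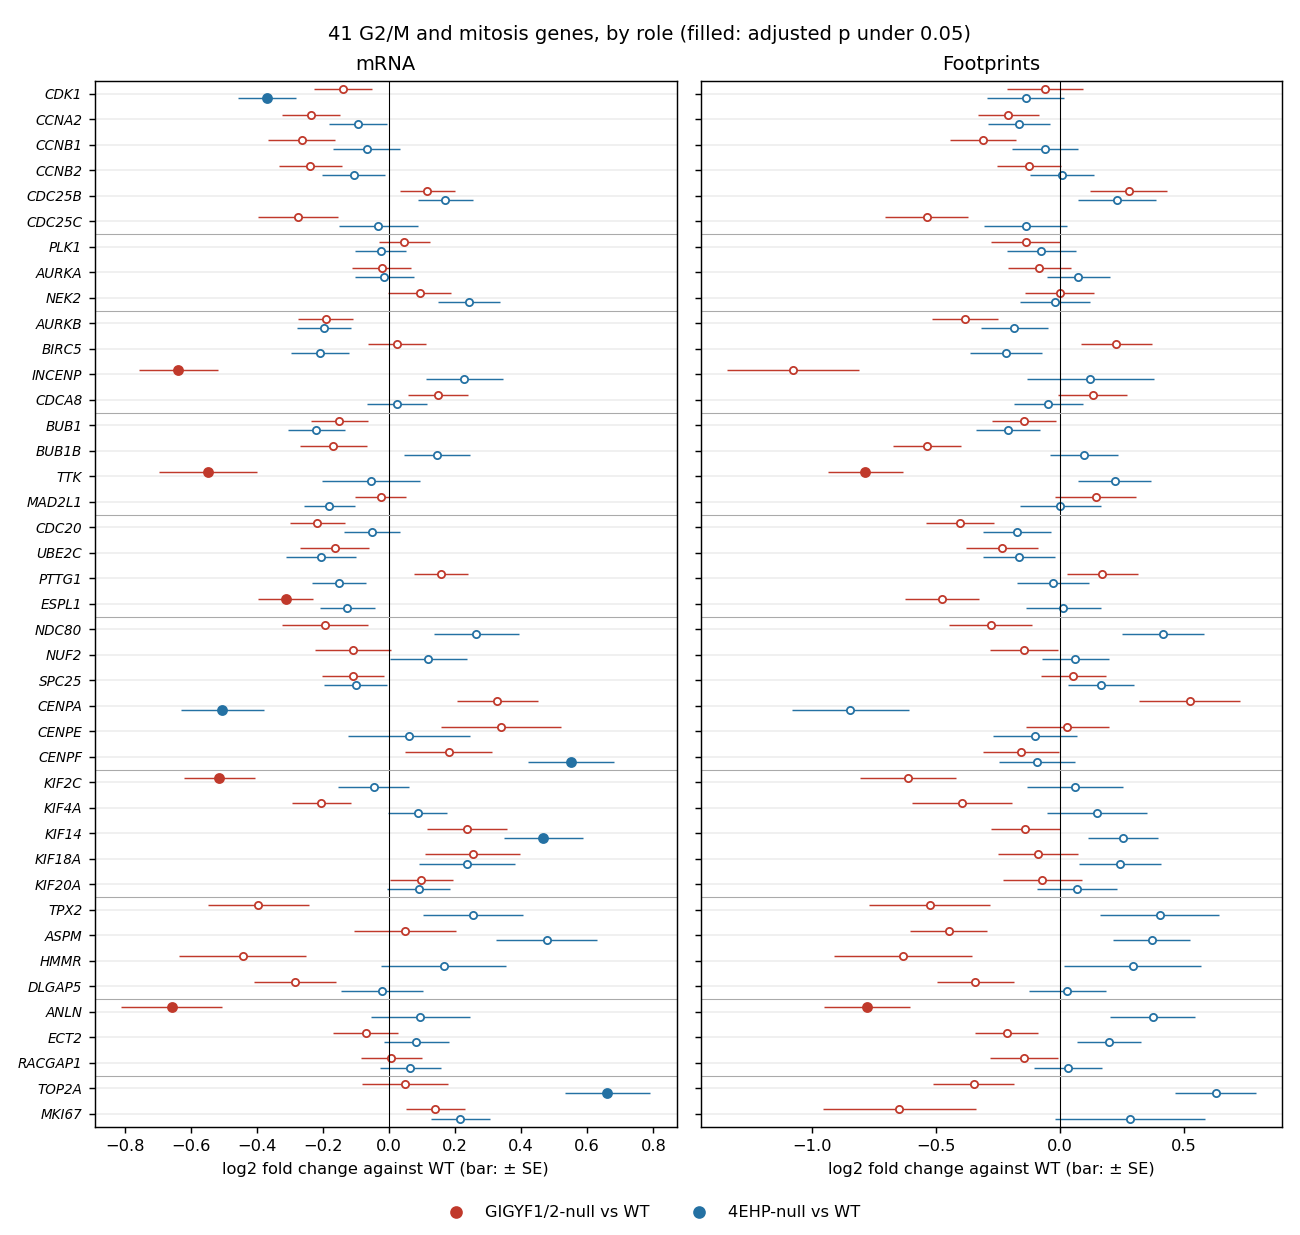
Log2 fold change against WT (x axes, bars ± standard error) of mRNA (left) and footprints (right) for each of the 41 genes, ordered by role from top to bottom with lines between roles. Red points are GIGYF1/2-null and blue points 4EHP-null cells, and filled points have an edgeR adjusted p under 0.05. INCENP, TTK and ANLN stand furthest to the left in mRNA of GIGYF1/2-null cells, and TOP2A furthest to the right in 4EHP-null cells.

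CDK1, its cyclins and its activating phosphatases form the switch into mitosis. CDK1 mRNA stood at 203 and 182 CPM in GIGYF1/2-null libraries, 154 and 175 CPM in 4EHP-null libraries and 211 and 214 CPM in WT libraries. The 4EHP-null libraries were below all others, and CDK1 mRNA fell against WT (-0.37 ± 0.09, edgeR adjusted p = 0.0156) to 0.774 times the WT level. The call ended without 4EHP-null replicate 1 (adjusted p = 0.176), WT replicate 1 (adjusted p = 0.0785) or WT replicate 2 (adjusted p = 0.101). CDK1 lies on chromosome 10, and the 24 tested genes nearest to it in RefSeq order had a median change of -0.48 in the same comparison, with 23 of 24 below 0. Whether the change of this stretch has a part in that of CDK1 was not tested. CDK1 footprints overlapped between the genotypes, at 258 and 302 CPM in GIGYF1/2-null libraries, 248 and 282 CPM in 4EHP-null libraries and 258 and 325 CPM in WT libraries, and were not called in any comparison.

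Cyclin A2 (CCNA2) and the B cyclins (CCNB1 and CCNB2) are the partners of CDK1. CCNA2 mRNA was at 197 and 168 CPM (GIGYF1/2-null), 206 and 196 CPM (4EHP-null) and 218 and 211 CPM (WT), and its footprints at 203 and 208 CPM (GIGYF1/2-null), 214 and 209.6 CPM (4EHP-null) and 230.2 and 244 CPM (WT). CCNB1 mRNA was at 196 and 171 CPM (GIGYF1/2-null), 214 and 207 CPM (4EHP-null) and 242 and 199 CPM (WT), and its footprints at 326 and 286 CPM (GIGYF1/2-null), 371 and 356 CPM (4EHP-null) and 393 and 366 CPM (WT). CCNB2 mRNA was at 60.5 and 55.3 CPM (GIGYF1/2-null), 62.5 and 64.4 CPM (4EHP-null) and 73.9 and 62.9 CPM (WT), and its footprints at 91.3 and 83.4 CPM (GIGYF1/2-null), 100.3 and 91.2 CPM (4EHP-null) and 95.7 and 95 CPM (WT). For all 3 cyclins, in mRNA and in footprints, both GIGYF1/2-null libraries were below both WT libraries, an order not counted over all genes. None of these differences was called, with mRNA changes against WT of -0.24, -0.26 and -0.24 and edgeR adjusted p-values of 0.11, 0.118 and 0.136 in the order CCNA2, CCNB1 and CCNB2. Of the phosphatases that activate CDK1, CDC25B had log2 changes of 0.12 ± 0.08 in GIGYF1/2-null and 0.17 ± 0.08 in 4EHP-null mRNA, and CDC25C of -0.28 ± 0.12 and -0.03 ± 0.12. None was called.

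PLK1, AURKA and NEK2 are kinases of centrosomes and spindle poles, and none was called in any of the 9 comparisons. PLK1 mRNA was at 141 and 141 CPM in GIGYF1/2-null libraries, 139 and 129.6 CPM in 4EHP-null libraries and 139.9 and 133 CPM in WT libraries, and its footprints were at 156 and 153 CPM (GIGYF1/2-null), 148 and 174 CPM (4EHP-null) and 185 and 156 CPM (WT). Its GIGYF1/2-null libraries were just above all others in mRNA, and its footprints overlapped. AURKA mRNA was at 87.8 and 88.4 CPM (GIGYF1/2-null), 85.3 and 92.1 CPM (4EHP-null) and 96.1 and 83 CPM (WT), and its footprints at 74.5 and 81.4 CPM (GIGYF1/2-null), 87.4 and 86.7 CPM (4EHP-null) and 83.6 and 81.8 CPM (WT). The genotypes overlapped in AURKA mRNA, and both GIGYF1/2-null libraries were lowest in its footprints. NEK2 had log2 changes of 0.09 ± 0.09 in GIGYF1/2-null and 0.24 ± 0.09 in 4EHP-null mRNA.

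AURKB, BIRC5 (survivin), CDCA8 (borealin) and INCENP make up the chromosomal passenger complex, which corrects faulty attachments of chromosomes to the spindle. INCENP, the scaffold on which the other subunits and the kinase assemble, had an mRNA level of 25.7 and 23.4 CPM in GIGYF1/2-null libraries, 42.3 and 47.2 CPM in 4EHP-null libraries and 41.7 and 34.7 CPM in WT libraries. Both GIGYF1/2-null libraries were below every other library. INCENP mRNA fell in GIGYF1/2-null cells against WT (-0.64 ± 0.12, edgeR adjusted p = 0.00407), to 0.643 times the WT level, and was lower than in 4EHP-null cells (-0.87 ± 0.12, edgeR adjusted p = 0.000271). The call against WT ended without WT replicate 1 (adjusted p = 0.062), while that against 4EHP-null cells held without any 1 library and under each setting tried. INCENP footprints were at 22.9 and 13.2 CPM in GIGYF1/2-null libraries, 43.2 and 38.5 CPM in 4EHP-null libraries and 47.5 and 28.4 CPM in WT libraries. They were lower in GIGYF1/2-null than in 4EHP-null cells (-1.20 ± 0.27, edgeR adjusted p = 0.0153), which was lost without 4EHP-null replicate 1 (adjusted p = 0.122), 4EHP-null replicate 2 (adjusted p = 0.0669) or GIGYF1/2-null replicate 2 (adjusted p = 0.0543). Against WT the footprint change was -1.08 ± 0.27, edgeR adjusted p = 0.0615.

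None of the partners of INCENP was called in any comparison. AURKB, the kinase subunit, had mRNA at 57.9 and 60.4 CPM (GIGYF1/2-null), 60.8 and 57.2 CPM (4EHP-null) and 67.9 and 67.3 CPM (WT) and footprints at 62.1 and 54.2 CPM (GIGYF1/2-null), 67.3 and 66 CPM (4EHP-null) and 77.1 and 74.5 CPM (WT). Both null genotypes were below WT in both assays, with log2 changes of -0.19 and -0.20 in mRNA of GIGYF1/2-null and 4EHP-null cells. BIRC5, an inhibitor-of-apoptosis family member that targets the complex to centromeres, had log2 changes of 0.02 ± 0.09 in GIGYF1/2-null and -0.21 ± 0.09 in 4EHP-null mRNA, and CDCA8 of 0.15 ± 0.09 and 0.02 ± 0.09.

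TTK, BUB1, BUB1B (BUBR1) and MAD2L1 (MAD2) run the spindle checkpoint, which holds cells in mitosis until every chromosome is attached. TTK mRNA was at 31.4 and 24.4 CPM in GIGYF1/2-null libraries, 37.3 and 41.3 CPM in 4EHP-null libraries and 46.6 and 35 CPM in WT libraries. TTK footprints were at 46.5 and 37.8 CPM in GIGYF1/2-null libraries, 90.8 and 78.1 CPM in 4EHP-null libraries and 73.7 and 71.3 CPM in WT libraries. In both assays the GIGYF1/2-null libraries were below all others. Against WT, TTK fell in mRNA (-0.55 ± 0.15, edgeR adjusted p = 0.0315) and in footprints (-0.78 ± 0.15, edgeR adjusted p = 0.0222), to 0.581 times the WT footprint level. The mRNA call ended without GIGYF1/2-null replicate 2 (adjusted p = 0.199) or WT replicate 1 (adjusted p = 0.301), and the footprint call without GIGYF1/2-null replicate 2 (adjusted p = 0.0929), WT replicate 1 (adjusted p = 0.132) or WT replicate 2 (adjusted p = 0.111). Against 4EHP-null cells TTK was lower in mRNA (-0.49 ± 0.15, edgeR adjusted p = 0.0301), which ended without 4EHP-null replicate 2 (adjusted p = 0.138) or GIGYF1/2-null replicate 2 (adjusted p = 0.213). The footprint difference from 4EHP-null cells (-1.004 ± 0.15, edgeR adjusted p = 0.0023) held without any 1 library and under each setting tried.

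BUB1B, which blocks the anaphase-promoting complex, had mRNA at 65.8 and 59.3 CPM (GIGYF1/2-null), 73.9 and 81.5 CPM (4EHP-null) and 76.2 and 64.5 CPM (WT) and footprints at 64.2 and 58.6 CPM (GIGYF1/2-null), 99.2 and 91 CPM (4EHP-null) and 95.5 and 82.7 CPM (WT). It was lower in GIGYF1/2-null than in 4EHP-null cells in mRNA (-0.31 ± 0.10, edgeR adjusted p = 0.0389) and in footprints (-0.63 ± 0.14, edgeR adjusted p = 0.0141), and was not called against WT. The mRNA call ended without 4EHP-null replicate 1 (adjusted p = 0.0642), 4EHP-null replicate 2 (adjusted p = 0.248) or GIGYF1/2-null replicate 2 (adjusted p = 0.189) and under upper-quartile scaling (adjusted p = 0.0709), and the footprint call without 4EHP-null replicate 1 (adjusted p = 0.116) or GIGYF1/2-null replicate 2 (adjusted p = 0.0574). BUB1 and MAD2L1 were not called in any comparison, with mRNA changes against WT of -0.15 and -0.02 in GIGYF1/2-null and -0.22 and -0.18 in 4EHP-null cells.

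Exit from mitosis depends on CDC20, which activates the anaphase-promoting complex, UBE2C, its ubiquitin-conjugating enzyme, PTTG1 (securin) and ESPL1 (separase), the protease that securin restrains and that opens cohesin rings. ESPL1 mRNA was at 61.4 and 67.8 CPM in GIGYF1/2-null libraries, 74.6 and 72.4 CPM in 4EHP-null libraries and 82 and 78.6 CPM in WT libraries. The libraries of the 3 genotypes did not overlap, with GIGYF1/2-null lowest and WT highest, and ESPL1 mRNA fell in GIGYF1/2-null cells against WT (-0.31 ± 0.08, edgeR adjusted p = 0.0293). That call ended without GIGYF1/2-null replicate 1 (adjusted p = 0.109), WT replicate 1 (adjusted p = 0.189) or WT replicate 2 (adjusted p = 0.0974) and under upper-quartile scaling (adjusted p = 0.0571). PTTG1 mRNA was at 101 and 111 CPM (GIGYF1/2-null), 83.7 and 87.9 CPM (4EHP-null) and 96.1 and 94.5 CPM (WT). It was higher in GIGYF1/2-null than in 4EHP-null cells (0.31 ± 0.08, edgeR adjusted p = 0.0154), which was lost without 4EHP-null replicate 1 (adjusted p = 0.131), 4EHP-null replicate 2 (adjusted p = 0.0607) or GIGYF1/2-null replicate 2 (adjusted p = 0.0848). PTTG1 has near-identical copies in the genome, PTTG2 and PTTG3P, and the sources used here do not give how the authors' counting split such reads.

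CDC20 mRNA was at 134 and 128 CPM (GIGYF1/2-null), 154 and 139.8 CPM (4EHP-null) and 159.5 and 145 CPM (WT), and its footprints at 172 and 152 CPM (GIGYF1/2-null), 188 and 193 CPM (4EHP-null) and 232 and 198 CPM (WT). Both GIGYF1/2-null libraries were below both WT libraries in each assay, with log2 changes of -0.22 in mRNA and -0.40 in footprints, and neither was called (edgeR adjusted p = 0.121 and 0.15). UBE2C mRNA was at 123 and 147 CPM (GIGYF1/2-null), 124 and 139 CPM (4EHP-null) and 163 and 139.8 CPM (WT), and its footprints at 144 and 172 CPM (GIGYF1/2-null), 149 and 183 CPM (4EHP-null) and 186 and 185 CPM (WT). Both 4EHP-null libraries were below both WT libraries in each assay, and both GIGYF1/2-null libraries were in footprints, but no value was called.

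Of the 6 centromere and kinetochore genes, CENPA fell and CENPF rose in mRNA of 4EHP-null cells. CENPA mRNA was at 31.1 and 34.5 CPM in GIGYF1/2-null libraries, 16.3 and 20.7 CPM in 4EHP-null libraries and 25.9 and 26.4 CPM in WT libraries. CENPA footprints were at 16.6 and 20.3 CPM in GIGYF1/2-null libraries, 5.35 and 8.85 CPM in 4EHP-null libraries and 12.3 and 13.4 CPM in WT libraries. In both assays 4EHP-null libraries were lowest, WT libraries intermediate and GIGYF1/2-null libraries highest, with no overlap. CENPA mRNA fell in 4EHP-null cells against WT (-0.50 ± 0.13, edgeR adjusted p = 0.0203), to 0.705 times the WT level, which was lost without 4EHP-null replicate 1 (adjusted p = 0.163), WT replicate 1 (adjusted p = 0.0765) or WT replicate 2 (adjusted p = 0.0969). Between the null genotypes it was higher in GIGYF1/2-null cells in mRNA (0.83 ± 0.13, edgeR adjusted p = 0.000533) and in footprints (1.37 ± 0.23, edgeR adjusted p = 0.00373), to 2.58 times the 4EHP-null footprint level. Those calls held without any 1 library and under each setting tried. The 24 neighbours of CENPA had a median mRNA change of -0.17 in 4EHP-null cells against WT, with 16 below 0, and of 0.26 between the null genotypes, with 6 below 0, and their part in the change of CENPA was not tested. Against WT, CENPA was not called in GIGYF1/2-null mRNA (0.33 ± 0.12, edgeR adjusted p = 0.111), nor in footprints of GIGYF1/2-null (0.52 ± 0.20, edgeR adjusted p = 0.208) or 4EHP-null cells (-0.85 ± 0.24, edgeR adjusted p = 0.0842).

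CENPF mRNA was at 80.9 and 67.2 CPM in GIGYF1/2-null libraries, 80.9 and 111 CPM in 4EHP-null libraries and 66.6 and 64.1 CPM in WT libraries, and rose in 4EHP-null cells against WT (0.55 ± 0.13, edgeR adjusted p = 0.0156). Its 4EHP-null libraries lay apart from each other, with replicate 1 level with GIGYF1/2-null replicate 1, and the call ended without 4EHP-null replicate 2 (adjusted p = 0.191), WT replicate 1 (adjusted p = 0.0806) or WT replicate 2 (adjusted p = 0.116). CENPF footprints overlapped between the genotypes, at 380.2 and 332 CPM (GIGYF1/2-null), 413 and 332 CPM (4EHP-null) and 425 and 369 CPM (WT), and had a change of -0.09 ± 0.15 in 4EHP-null cells. The footprint change minus the mRNA change was -0.62 ± 0.22, with an edgeR adjusted p of 0.53, so that the difference between the assays was not called. NDC80, which holds microtubule ends at the outer kinetochore, was lower in GIGYF1/2-null than in 4EHP-null cells in mRNA (14.4 and 13.7 against 17.5 and 21.1 CPM; -0.46 ± 0.13, edgeR adjusted p = 0.0228) and in footprints (33.9 and 24.7 against 49.4 and 45.2 CPM; -0.70 ± 0.17, edgeR adjusted p = 0.0216). The mRNA call ended without 4EHP-null replicate 2 (adjusted p = 0.203) or GIGYF1/2-null replicate 2 (adjusted p = 0.0965), and the footprint call without 4EHP-null replicate 1 (adjusted p = 0.149), 4EHP-null replicate 2 (adjusted p = 0.078) or GIGYF1/2-null replicate 2 (adjusted p = 0.116). NUF2 and SPC25, subunits of the same NDC80 complex, and the kinesin CENPE were not called in any comparison.

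**Figure D2:**
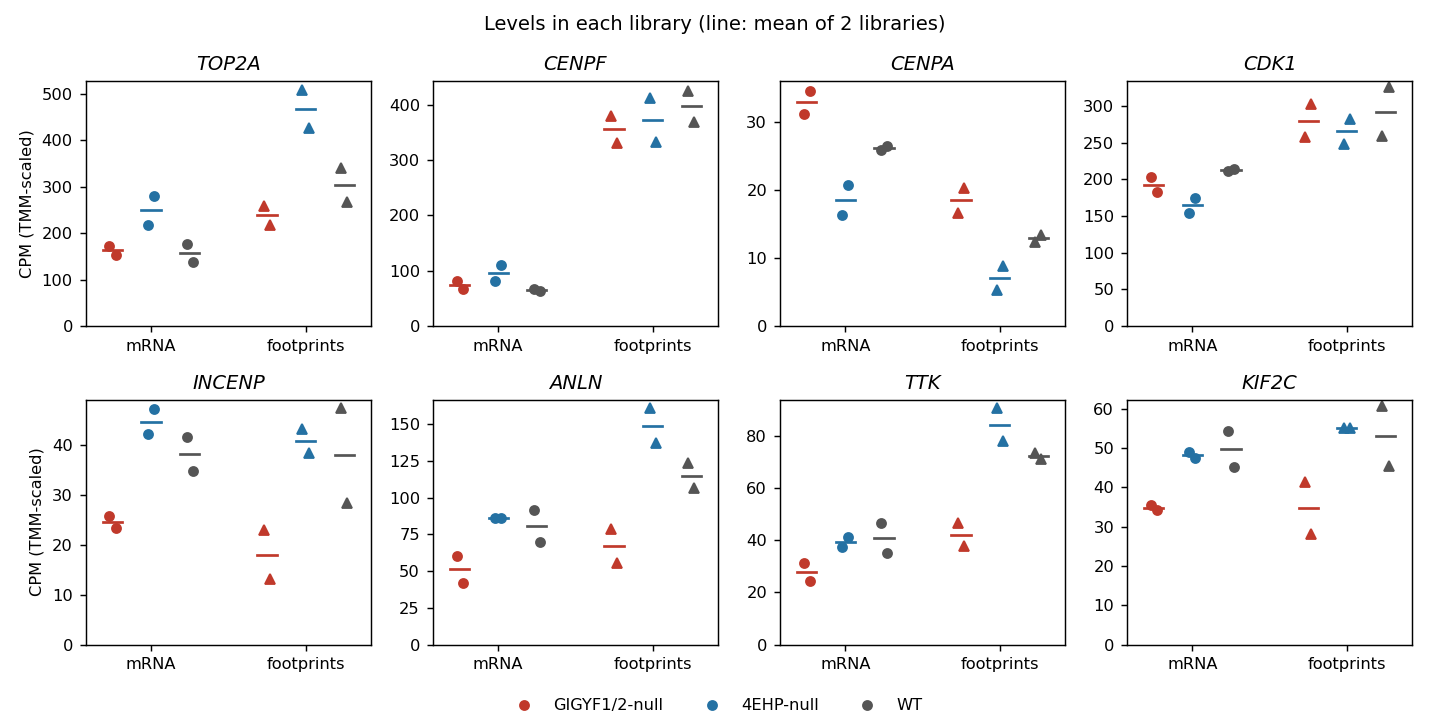
CPM (TMM-scaled, y axes starting at 0) of 8 of the called genes in each library, with circles for mRNA, triangles for footprints and lines at the mean of 2 libraries, in the order GIGYF1/2-null, 4EHP-null and WT from left to right within each assay. INCENP, ANLN, TTK and KIF2C are lowest in GIGYF1/2-null cells in both assays, and CENPA is lowest in 4EHP-null cells in both.

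Among the 5 kinesins, KIF2C mRNA fell in GIGYF1/2-null cells and KIF14 mRNA rose in 4EHP-null cells. KIF2C mRNA was at 35.6 and 34.2 CPM in GIGYF1/2-null libraries, 48.9 and 47.5 CPM in 4EHP-null libraries and 54.5 and 45.2 CPM in WT libraries. Both GIGYF1/2-null libraries were below all others, and KIF2C mRNA fell against WT (-0.51 ± 0.11, edgeR adjusted p = 0.00793) and was lower than in 4EHP-null cells (-0.47 ± 0.11, edgeR adjusted p = 0.00754). The call against WT ended without WT replicate 1 (adjusted p = 0.122), and the other held without any 1 library and under each setting tried. Its footprints, at 41.3 and 28.2 CPM (GIGYF1/2-null), 55 and 55.1 CPM (4EHP-null) and 60.8 and 45.5 CPM (WT), were lower in GIGYF1/2-null than in 4EHP-null cells (-0.67 ± 0.20, edgeR adjusted p = 0.0484), which ended without 4EHP-null replicate 1 (adjusted p = 0.196), 4EHP-null replicate 2 (adjusted p = 0.169) or GIGYF1/2-null replicate 2 (adjusted p = 0.228) and under upper-quartile scaling (adjusted p = 0.065). KIF14 mRNA was at 40.2 and 36 CPM in GIGYF1/2-null libraries, 40.2 and 49.4 CPM in 4EHP-null libraries and 34.1 and 30.7 CPM in WT libraries and rose in 4EHP-null cells against WT (0.47 ± 0.12, edgeR adjusted p = 0.0233). All 4 libraries of the null genotypes were above the WT libraries, and the call ended without 4EHP-null replicate 2 (adjusted p = 0.192), WT replicate 1 (adjusted p = 0.0718) or WT replicate 2 (adjusted p = 0.186). The 24 neighbours of KIF14 had a median mRNA change of 0.19 in the same comparison, with 6 below 0, and their part was not tested.

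KIF4A, a chromosome-bound kinesin of the spindle midzone, was lower in GIGYF1/2-null mRNA (64.1 and 60.6 CPM) than in 4EHP-null mRNA (78.7 and 73.8 CPM; -0.29 ± 0.09, edgeR adjusted p = 0.0321). The call ended without 4EHP-null replicate 1 (adjusted p = 0.198), 4EHP-null replicate 2 (adjusted p = 0.08) or GIGYF1/2-null replicate 2 (adjusted p = 0.133) and under upper-quartile scaling (adjusted p = 0.0666), and reads of its near-identical copy KIF4B could be split between them. KIF18A, which dampens chromosome movements, and KIF20A, which acts in cytokinesis, were not called.

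TPX2, ASPM, HMMR and DLGAP5 bind microtubules and organise the spindle. All 4 had lower footprints in the GIGYF1/2-null libraries than in the 4EHP-null libraries, an order not counted over all genes. The differences were called for TPX2 and ASPM. TPX2, which activates AURKA, had mRNA at 116 and 81.9 CPM (GIGYF1/2-null), 161 and 149.6 CPM (4EHP-null) and 149.8 and 111 CPM (WT) and footprints at 111 and 60.5 CPM (GIGYF1/2-null), 179.6 and 144 CPM (4EHP-null) and 141 and 105 CPM (WT). It was lower in GIGYF1/2-null than in 4EHP-null cells in mRNA (-0.65 ± 0.15, edgeR adjusted p = 0.00848) and in footprints (-0.93 ± 0.24, edgeR adjusted p = 0.0325). The mRNA call ended without 4EHP-null replicate 1 (adjusted p = 0.0503) and with DESeq2 (adjusted p = 0.0706). The footprint call ended without 4EHP-null replicate 1 (adjusted p = 0.217), 4EHP-null replicate 2 (adjusted p = 0.0754) or GIGYF1/2-null replicate 2 (adjusted p = 0.106) and with DESeq2 (adjusted p = 0.168). ASPM, a protein of spindle poles, had footprints at 89 and 72.2 CPM in GIGYF1/2-null libraries, 153 and 131 CPM in 4EHP-null libraries and 120.2 and 99.97 CPM in WT libraries. Both 4EHP-null libraries were above, and both GIGYF1/2-null libraries below, every WT library, and the null genotypes differed (-0.82 ± 0.16, edgeR adjusted p = 0.00724), which was lost without 4EHP-null replicate 1 (adjusted p = 0.085). ASPM mRNA was not called between them (-0.43 ± 0.15, edgeR adjusted p = 0.0601). The 24 neighbours of ASPM had a median footprint change of -0.14 between the null genotypes, with 17 below 0, and a median mRNA change of 0.26 in 4EHP-null cells against WT, with 6 below 0.

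HMMR, which crosslinks spindle microtubules, was lower in GIGYF1/2-null mRNA (23.7 and 15.8 CPM) than in 4EHP-null mRNA (27.8 and 32.3 CPM; -0.61 ± 0.19, edgeR adjusted p = 0.0361). Its WT libraries, at 31.7 and 22 CPM, spanned the gap between the null genotypes. The call ended without 4EHP-null replicate 2 (adjusted p = 0.166) or GIGYF1/2-null replicate 2 (adjusted p = 0.244) and with DESeq2 (adjusted p = 0.186). DLGAP5, which stabilises spindle fibres at kinetochores, was not called.

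ANLN, ECT2 and RACGAP1 build the cleavage furrow. ANLN mRNA was at 60.4 and 42 CPM in GIGYF1/2-null libraries, 86.1 and 86.4 CPM in 4EHP-null libraries and 91.8 and 69.8 CPM in WT libraries. ANLN footprints were at 78.7 and 55.7 CPM in GIGYF1/2-null libraries, 161 and 137 CPM in 4EHP-null libraries and 124 and 106 CPM in WT libraries. The GIGYF1/2-null libraries were lowest in both assays, and the 4EHP-null libraries were above the WT libraries in footprints only. Against WT, ANLN fell in GIGYF1/2-null cells in mRNA (-0.66 ± 0.15, edgeR adjusted p = 0.0144) and in footprints (-0.78 ± 0.17, edgeR adjusted p = 0.0422). The mRNA call ended without GIGYF1/2-null replicate 2 (adjusted p = 0.0693) or WT replicate 1 (adjusted p = 0.178) and with DESeq2 (adjusted p = 0.0971). The footprint call ended without GIGYF1/2-null replicate 2 (adjusted p = 0.169), WT replicate 1 (adjusted p = 0.239) or WT replicate 2 (adjusted p = 0.109), and under RLE or upper-quartile scaling (adjusted p = 0.05004 and 0.0566). Against 4EHP-null cells ANLN was lower in mRNA (-0.75 ± 0.15, edgeR adjusted p = 0.00359) and in footprints (-1.15 ± 0.17, edgeR adjusted p = 0.00237), to 0.450 times the 4EHP-null footprint level, and both calls held without any 1 library and under each setting tried. The 24 tested neighbours of ANLN had a median mRNA change of -0.23 in GIGYF1/2-null cells against WT, with 19 below 0, and their part in the change of ANLN was not tested. ECT2, which activates RhoA at the cell equator, and RACGAP1, its partner in the central spindle, were not called, with mRNA changes from -0.07 to 0.08 against WT.

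TOP2A and MKI67 act on mitotic chromosomes. TOP2A mRNA was at 173 and 153 CPM in GIGYF1/2-null libraries, 218 and 281 CPM in 4EHP-null libraries and 177 and 139 CPM in WT libraries. TOP2A footprints were at 259 and 218 CPM in GIGYF1/2-null libraries, 509.6 and 428 CPM in 4EHP-null libraries and 340.0 and 267 CPM in WT libraries. Both 4EHP-null libraries were above all others in each assay, while in footprints both GIGYF1/2-null libraries were below both WT libraries. TOP2A mRNA rose in 4EHP-null cells against WT (0.66 ± 0.13, edgeR adjusted p = 0.0057), to 1.58 times the WT level, and the call ended without 4EHP-null replicate 2 (adjusted p = 0.0696) or WT replicate 2 (adjusted p = 0.0798). The footprint change against WT was not called (0.63 ± 0.16, edgeR adjusted p = 0.0641). In GIGYF1/2-null cells TOP2A was lower than in 4EHP-null cells in mRNA (-0.61 ± 0.13, edgeR adjusted p = 0.00455), which ended without 4EHP-null replicate 2 (adjusted p = 0.061), and in footprints (-0.97 ± 0.16, edgeR adjusted p = 0.00395), which ended without 4EHP-null replicate 1 (adjusted p = 0.0503).

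MKI67, the Ki-67 protein that coats mitotic chromosomes and serves as a marker of dividing cells, had mRNA at 68.1 and 64.5 CPM in GIGYF1/2-null libraries, 66.2 and 73.7 CPM in 4EHP-null libraries and 62.6 and 57.7 CPM in WT libraries. Its footprints were at 43 and 22.7 CPM in GIGYF1/2-null libraries, 70.6 and 53.6 CPM in 4EHP-null libraries and 66.8 and 36.1 CPM in WT libraries. In mRNA all 4 libraries of the null genotypes were above the WT libraries, whereas in footprints the GIGYF1/2-null libraries were below the 4EHP-null libraries and the WT libraries overlapped with both, with replicate 1 above replicate 2 in all 3 genotypes. No value was called, with mRNA changes of 0.14 ± 0.09 in GIGYF1/2-null and 0.22 ± 0.09 in 4EHP-null cells. MKI67 also lies on chromosome 10, and its 24 neighbours had a median mRNA change of -0.56 in 4EHP-null cells, with all 24 below 0. For the other mRNAs called against WT, the neighbour medians were -0.08 (CENPF) and 0.03 (TOP2A) in 4EHP-null cells, and -0.0075 (INCENP), 0.02 (KIF2C), 0.06 (ESPL1) and 0.08 (TTK) in GIGYF1/2-null cells.

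Translation efficiency was tested as the footprint change minus the mRNA change in a model over all 12 libraries. None of the 41 genes was called in GIGYF1/2-null cells against WT, in GIGYF1/2-null against 4EHP-null cells or in 4EHP-null cells against WT, by edgeR or by DESeq2, where edgeR called 0.0453%, 0.181% and 0.0981% of 13257 genes in that order (0.0377%, 0.0453% and 0.0905% higher, 0.00754%, 0.136% and 0.00754% lower). At an unadjusted p under 0.05 there were 2, 2 and 1 of the 41, against 569, 828 and 953 of all 13257 genes. These members were MKI67 (-0.78 ± 0.36) and BUB1B (-0.36 ± 0.16) in GIGYF1/2-null cells against WT, MKI67 (-0.87 ± 0.36) and TTK (-0.53 ± 0.22) between the null genotypes, and CENPF in 4EHP-null cells. The median change in efficiency was -0.12 in GIGYF1/2-null cells against WT, with 31 of 41 genes below 0, and -0.16 between the null genotypes, with 33 below 0. In 4EHP-null cells against WT it was 0.03, with 16 below 0. Over all genes these medians were -0.014, 0.015 and -0.016.

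Across the 41 genes, mRNA and footprint changes went together. Pearson's r was 0.91 between the null genotypes, 0.77 in GIGYF1/2-null cells against WT and 0.74 in 4EHP-null cells against WT, against 0.70, 0.61 and 0.54 over all genes tested. Genes are not independent replicates, all points share the same libraries, and the values are a description. The summed footprints of the 41 genes were 4451 and 4201 CPM in GIGYF1/2-null, 5357 and 5013 CPM in 4EHP-null and 5159 and 4831 CPM in WT libraries, so that both GIGYF1/2-null libraries were below all others. The summed mRNA overlapped, at 3654 and 3450 CPM in GIGYF1/2-null, 3729 and 3908 CPM in 4EHP-null and 4004 and 3605 CPM in WT libraries. Summed footprints of 108 other G2/M and mitosis genes were also lowest in GIGYF1/2-null libraries (15030 and 13960 CPM, against 16470 to 16720 CPM elsewhere). So were those of 42 G1/S and DNA replication genes (5309 and 4877 CPM, against 5829 to 6573 CPM). Both of these lists were lowest there in mRNA too.

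**Figure D3:**
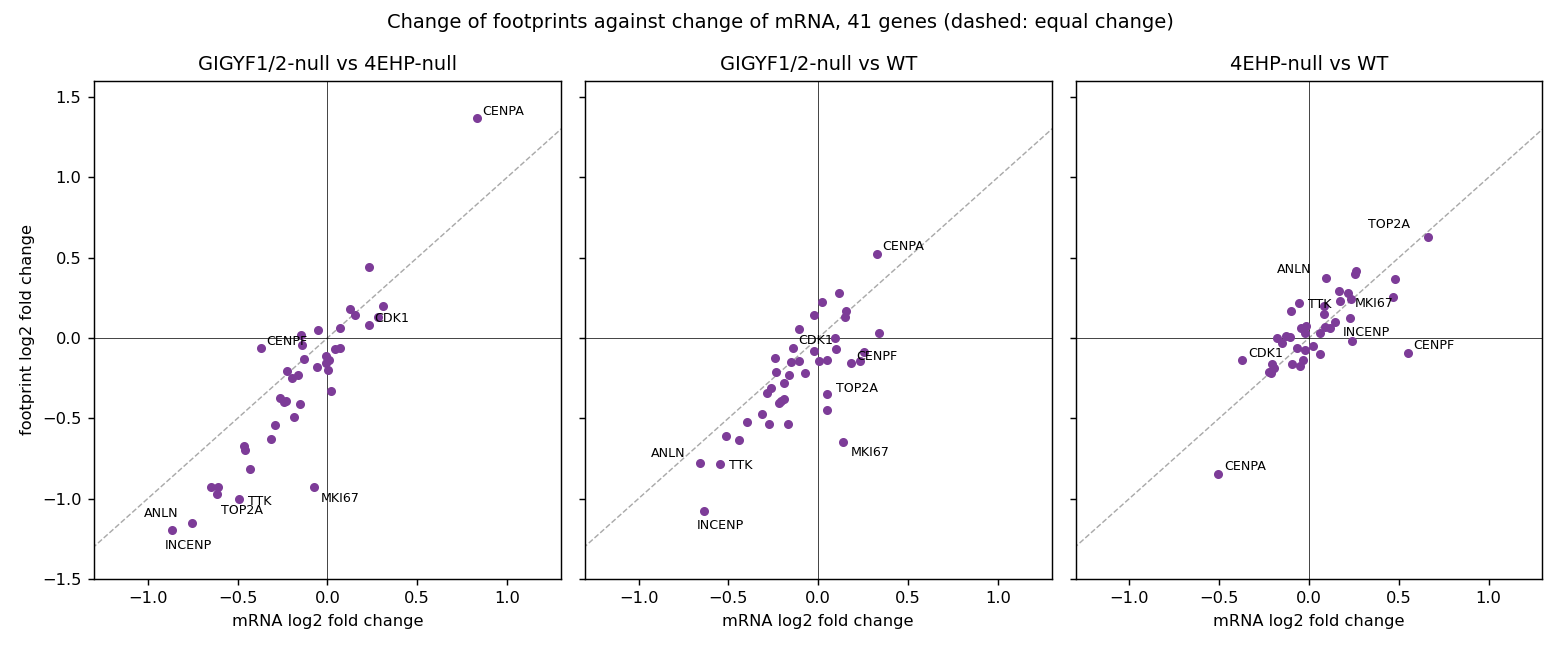
Footprint log2 fold change (y axis) against mRNA log2 fold change (x axis) of the 41 genes in the 3 comparisons, 1 point per gene, with the dashed line at equal change. CENPA stands alone at the upper right of the left panel and INCENP and ANLN at its lower left, while CENPF lies right of the line in 4EHP-null cells.

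The mitotic mRNAs carried many footprints for their abundance. The ratio of footprint CPM to mRNA CPM, from the means of 2 libraries per assay, had a median log2 of 0.26 in GIGYF1/2-null, 0.37 in 4EHP-null and 0.39 in WT cells, against -0.48, -0.50 and -0.46 over all 13257 genes. In GIGYF1/2-null cells 35 of the 41 genes were above the median of all genes, in 4EHP-null cells 37 and in WT cells 36. In WT cells 12 of the 41 were above percentile 90 of all genes, led by the large kinetochore proteins CENPE (9.90 footprint CPM per mRNA CPM) and CENPF (6.04), by ASPM (3.34) and by KIF18A (2.93). The lowest were BIRC5 (0.342) and CENPA (0.501). mRNA reads cover whole transcripts and footprints mainly coding sequence, so the ratio also depends on the coding share of a transcript, which was not measured. Per length, MAD2L1 had the most mRNA of the 41 genes, at 185.0 RPKM (CPM per kilobase of gene model) in GIGYF1/2-null, 166 RPKM in 4EHP-null and 188 RPKM in WT cells, and CENPE the least, at 2.40 RPKM in GIGYF1/2-null, 1.98 RPKM in 4EHP-null and 1.90 RPKM in WT cells. CCNB1 had the most footprints per length, at 141 RPKM in GIGYF1/2-null, 168 RPKM in 4EHP-null and 175 RPKM in WT cells.

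**Figure D4:**
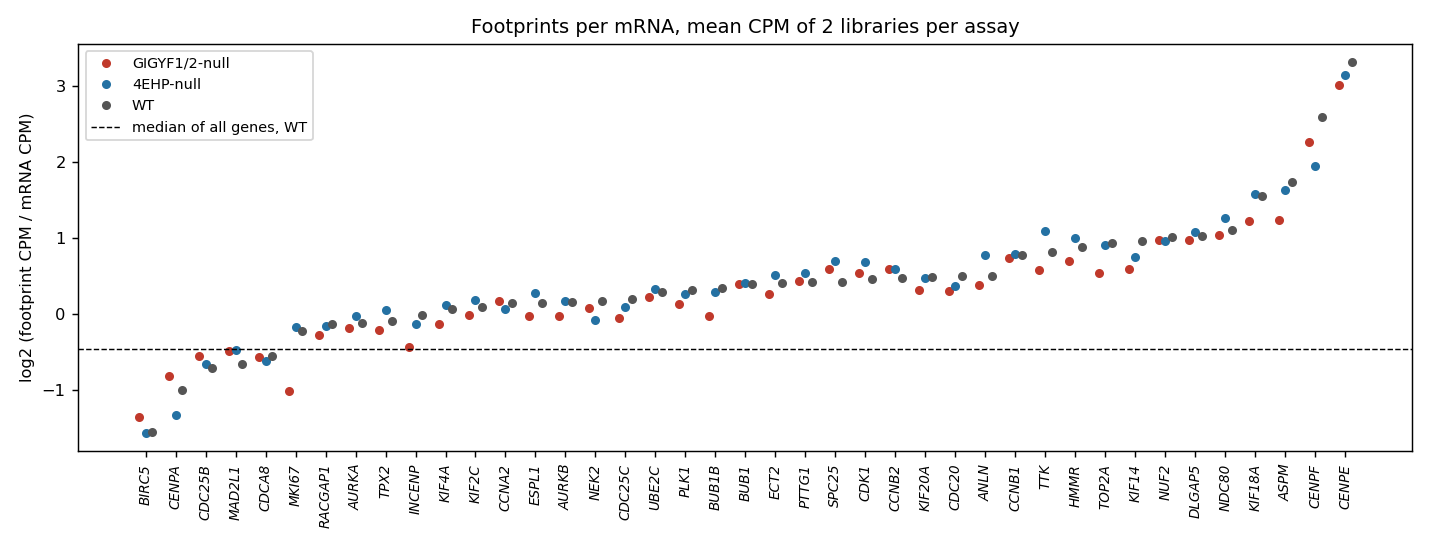
Log2 of footprint CPM over mRNA CPM (y axis) for each of the 41 genes, ordered by the WT value (x axis), in GIGYF1/2-null (red), 4EHP-null (blue) and WT cells (grey), with a dashed line at the WT median of all genes, -0.46. Most genes lie above the line in all 3 genotypes, from BIRC5 at the left to CENPE at the right.

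Some of the changes varied with the gene model length given in the count tables, which ran from 1160 bases (PTTG1) to 12495 bases (MKI67). In 4EHP-null cells against WT, the mRNA change had a Pearson's r of 0.65 with log2 length across the 41 genes, against 0.05 over all genes. TOP2A, CENPF, ASPM and KIF14, whose mRNA values were the 4 highest in that comparison, have gene models of 5753, 10296, 10888 and 7277 bases. In each of the 4, 4EHP-null replicate 2 was above replicate 1. Both were above both WT libraries, an order that picking the highest changes favours. In GIGYF1/2-null cells against WT, the change in translation efficiency had an r of -0.69 with log2 length, against -0.0021 over all genes, and the mRNA change one of 0.14. These include the strongest values. The remaining ones ran from -0.44 (footprints between the null genotypes) to 0.43 (footprints in 4EHP-null cells against WT). These correlations describe 41 genes measured in the same libraries, and whether length itself or a property that goes with it is behind them was not tested.

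**Figure D5:**
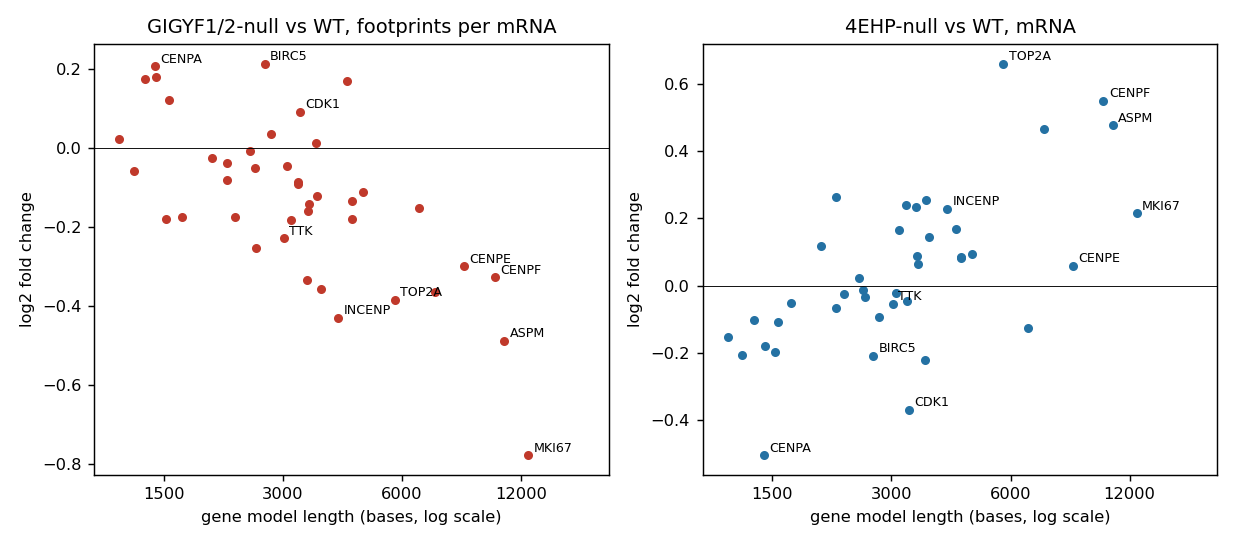
Log2 fold change (y axes) against gene model length in bases (x axes, log scale) for the 41 genes. On the left is the change in footprints per mRNA in GIGYF1/2-null cells against WT, which is lowest for MKI67, the longest gene model, and on the right the mRNA change in 4EHP-null cells against WT, which is highest for TOP2A, CENPF and ASPM.

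Replicates of 1 genotype differed over the whole set. In WT mRNA, replicate 1 was above replicate 2 for 37 of the 41 genes, with a median log2 difference of 0.19 and the widest for HMMR (0.52), whereas over all genes the split was 50.2%. In GIGYF1/2-null mRNA replicate 1 was the higher for 31 genes and in 4EHP-null mRNA for 12. In footprints replicate 1 was the higher for 28 genes in GIGYF1/2-null, 27 in 4EHP-null and 28 in WT libraries. These differences within a genotype stand beside the calls that ended when WT replicate 1 was left out, and their source was not tested.

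Genes with the CHR letters in their window (25 genes) had a median mRNA change of -0.11 in GIGYF1/2-null and 0.09 in 4EHP-null cells against WT, and those without (10 genes) medians of -0.05 and -0.04. In footprints of GIGYF1/2-null against 4EHP-null cells the medians were -0.37 with and -0.09 without the letters, with 7 of 25 and 1 of 10 genes called, against 10.8% of all genes. In mRNA, calls with and without the letters numbered 3 of 25 and 1 of 10 in GIGYF1/2-null cells against WT (11.9% of all genes), 5 of 25 and 0 of 10 in 4EHP-null cells against WT (13.1%) and 8 of 25 and 2 of 10 between the null genotypes (24.4%). The difference between these groups was not tested.

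A wider set held 108 other G2/M and mitosis genes, all of them tested. The genes named are those with the smallest adjusted p in each direction. In GIGYF1/2-null mRNA against WT, 14 of the 108 fell (13.0%) and none rose, where 11.9% of all genes were called and 6.75% called lower, among them SKA3 (-0.82 ± 0.12, edgeR adjusted p = 0.000691), a microtubule-binding kinetochore protein, NCAPG2 (-0.46 ± 0.08, edgeR adjusted p = 0.00199), a condensin II subunit, and CENPW (-0.55 ± 0.09, edgeR adjusted p = 0.00228), a centromere protein. The neighbours of these 3 genes, on chromosomes 13, 7 and 6, had median changes of -0.88, -0.36 (15 neighbours) and -0.29 in the same comparison. In 4EHP-null mRNA 3 rose and 8 fell, 10.2% of the 108 against 13.1% of all genes. KNTC1 (0.54 ± 0.09), a checkpoint protein of the kinetochore, CKAP5 (0.63 ± 0.16), which speeds up microtubule growth, and SMC4 (0.56 ± 0.15), a condensin core subunit, were higher. ANAPC16 (-0.56 ± 0.08), a subunit of the anaphase-promoting complex, BUB3 (-0.46 ± 0.08), the partner of BUB1, and PRC1 (-0.37 ± 0.09), which bundles midzone microtubules, were lower. Neighbour medians had the sign of the gene for all 6, at 0.32 (KNTC1), 0.10 (CKAP5), 0.14 (SMC4), -0.28 (ANAPC16), -0.32 (BUB3) and -0.32 (PRC1). Between the null genotypes 24 of the 108 were lower and 8 higher in GIGYF1/2-null mRNA, 29.6% in all against 24.4% of all genes. SKA3 (-0.89 ± 0.12), STAG1 (-0.58 ± 0.09) and SMC1A (-0.88 ± 0.14), the last 2 cohesin subunits, were among the lower, with neighbour medians of -0.88, 0.15 and -0.03. ZWINT (0.52 ± 0.08), BUB3 (0.46 ± 0.08) and ANAPC16 (0.42 ± 0.08) were among the higher. All 3 lie on chromosome 10, with neighbour medians of -0.23, 0.44 and 0.38. The part of the neighbours' changes in those of these genes was not tested.

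In footprints, 5 of the 108 (4.63%) fell in GIGYF1/2-null cells against WT, where 1.36% of all genes were called lower, among them PDS5B (-0.95 ± 0.17), a cohesin regulator, SKA3 (-0.83 ± 0.16) and CKAP2 (-1.05 ± 0.21), a spindle protein. All 3 lie on chromosome 13, with neighbour medians of -0.54, -1.02 and -0.50 in the same comparison, whose part was not tested. In 4EHP-null cells 2 of the 108 were called against WT (1.85%), where 3.04% of all genes were called. KNTC1 rose (0.73 ± 0.14) and UBE2S, a chain-extending enzyme of the anaphase-promoting complex, fell (-0.80 ± 0.13). Neighbour medians in the same comparison were 0.25 (KNTC1) and -0.19 (UBE2S), and the part of the neighbours was not tested. Between the null genotypes 18 (16.7%) were lower in GIGYF1/2-null footprints, against 6.8% of all genes, among them PDS5B (-1.43 ± 0.17), CKAP2 (-1.34 ± 0.21) and SMC4 (-1.25 ± 0.20), with neighbour medians of -0.58, -0.56 and -0.16. Another 4 (3.70%) were higher, against 3.98% of all genes. Among them were CEP55 (0.67 ± 0.14), ZWINT (0.73 ± 0.16) and UBE2S (0.62 ± 0.13), with neighbour medians of 0.19, -0.06 and 0.22. Of the 17 condensin and cohesin genes, 6 (35.3%) fell and none rose in GIGYF1/2-null mRNA against WT, where 6.75% of all genes were called lower, with a median of -0.23. Against 4EHP-null mRNA 10 (58.8%) were lower and none higher, where 13.0% of all genes were lower, with a median of -0.31. This group is singled out as the one with the highest share called lower among the groups by role within the 108. In the other groups, 1 of 15 CDK1 regulators and 1 of 16 anaphase-promoting complex genes fell against WT. So did 3 of 35 kinetochore and checkpoint genes and 3 of 25 spindle and cytokinesis genes, and none rose. Against 4EHP-null mRNA 2, 1, 5 and 6 were lower, and 1, 2, 4 and 1 higher, in the same order. Of 42 G1/S and DNA replication genes, which peak earlier in the cycle, 7 fell and none rose in GIGYF1/2-null mRNA against WT (16.7% called, against 11.9% of all genes), and 1 fell and 3 rose in 4EHP-null mRNA (9.52%, against 13.1%). In GIGYF1/2-null against 4EHP-null mRNA 19 were lower and 2 higher (21 of 42 called, against 24.4% of all genes).

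In the authors' deposited tables, made from the same libraries, 1 of the 41 mRNAs was higher (CENPA, 0.34) and 5 lower in GIGYF1/2-null cells at an adjusted p under 0.05, and 4 were higher and 2 lower in 4EHP-null cells, where ASPM (0.47) joined the genes named above. In footprints, the authors' deposited values had 4 genes lower in GIGYF1/2-null cells, with INCENP (-1.05) and BUB1B (-0.50) beside TTK and ANLN, and in 4EHP-null cells TOP2A (0.68) was higher and CENPA (-0.79) lower. None of the 41 was called in the authors' deposited translation efficiency tables.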

How the data were processed

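RNA-seq and Ribo-seq counts per gene, as deposited by the authors, are raw whole numbers with no normalization, and the gene model length beside them is in bases. Per the submitters' processing notes, Bowtie2, TopHat2, edgeR and the build hg19 were used, while the sources used here give no version, annotation, counting tool or strand setting, which leaves overlapping and antisense genes uncertain. Their own comparisons are deposited as well, as log2 fold changes with unadjusted and adjusted p-values. Those of translation efficiency also give footprints over mRNA in each genotype.

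The 41 genes and all gene lists were chosen with earlier results of these data known. Per-library values are printed for members called in any of 9 comparisons and for 13 listed members, and of other G2/M genes up to 3 called per direction are named. The tools were edgeR 4.0.16, DESeq2 1.42.0 and limma 3.58.1 under R 4.3.3. After filterByExpr, 15637 genes (mRNA), 14722 (footprints) and 13257 (translation efficiency) were tested with TMM scaling within each assay, and the 3 genotypes shared 1 estimate of the spread (common biological coefficient of variation 0.0862 and 0.119). The test is edgeR's quasi-likelihood F-test (legacy option), two-sided, with Benjamini-Hochberg adjustment over all genes. Scripts were tested on simulated data. Alternatives tried were DESeq2, the newer quasi-likelihood option, scaling by RLE or by the upper quartile, no filter on low counts, a block for the replicate number, and each library left out in turn, where the lone library left is assumed to vary like the others. Neighbours are the 12 tested genes on each side in RefSeq order (GRCh38.p14, names matched for 94.7% of genes).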

Additional observations from a re-analysis of the deposited data

How the results depend on the processing

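Of the 34 changes called for single genes, none changed direction under any alternative, and 268 of the alternative values stayed called while 72 did not. Without 1 library, members called numbered 0 to 9 in GIGYF1/2-null mRNA against WT, 0 to 4 in 4EHP-null mRNA against WT and 5 to 18 between the null genotypes. In footprints they numbered 0 to 9, 0 and 3 to 14 in the same order. With no filter on low counts, 9 members (main count 5) were called in GIGYF1/2-null mRNA against WT, and in footprints 9 (main count 2) in GIGYF1/2-null and 2 (main count 0) in 4EHP-null cells. RLE and upper-quartile scaling each called 1 member in GIGYF1/2-null footprints against WT, and DESeq2 called 1 in 4EHP-null footprints. No setting called a member in translation efficiency.

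The replicate numbers are shared between groups but do not pair the samples by any label: with 2 replicates per group, the deviations of same-numbered libraries had a correlation of 0.09 to 0.26 in mRNA and 0.13 to 0.34 in footprints. With the replicate number as a block, members called were 13 in GIGYF1/2-null and 10 in 4EHP-null mRNA against WT, 17 and 6 in footprints, and 18 in mRNA and 19 in footprints between the null genotypes. Over all genes the block gave 3224 calls in GIGYF1/2-null and 3571 in 4EHP-null mRNA (main counts 1868 and 2048), and 1747 and 1830 in footprints (main counts 307 and 448), with 3291 between the null genotypes (main count 1587).

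Over all genes, calls with no filter in footprints were 1135, 1166 and 2405 for GIGYF1/2-null and 4EHP-null cells against WT and between the null genotypes. Upper-quartile scaling moved the split of higher against lower calls in GIGYF1/2-null mRNA to 1002 and 868 (main 813 and 1055) and between the null genotypes to 2298 and 1616 (main 1788 and 2032), and in footprints to 132 and 139 (main 107 and 200) and 825 and 835 (main 586 and 1001). Without 1 library, calls over all genes were 779 to 1881, 827 to 1099 and 2282 to 3809 in mRNA (GIGYF1/2-null against WT, 4EHP-null against WT, between the null genotypes), 42 to 712, 103 to 133 and 388 to 1694 in footprints, and 1 to 4, 5 to 45 and 7 to 40 in translation efficiency. In translation efficiency, calls over all genes were 10 (DESeq2), 10 (no filter), 3 (newer quasi-likelihood option) and 11 (block) in GIGYF1/2-null cells (main count 6), 24 (DESeq2) and 28 (block) in 4EHP-null cells (main count 13) and 37 (DESeq2) and 50 (block) between the null genotypes (main count 24). Footprint libraries held fewer counts than mRNA libraries and had a wider common biological coefficient of variation (0.119 against 0.0862), which limits what could be detected in footprints.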
